A study of Mus musculus with 6 samples.

Results

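The genes described here are those that carry the leukemia inhibitory factor (LIF) signal in mouse embryonic stem cells: the receptor chains Lifr and Il6st, the kinase Jak1, the transcription factor Stat3, the feedback inhibitors Socs2 and Socs3, the kinases Pim1 and Pim3, and the transcription factor Gbx2. They were chosen by gene name, and all 9 had a row among the 17110 genes of the authors' deposited table, in which each gene has a single fold change between sorted groups of cells. The choice was made with earlier results of these data known, so a direction already described for such genes is not independent support here. The cells were mouse embryonic stem cells of the line that the labels call TG2A, with the labelled genotype MERVL::Fluorescent protein. MERVL is an endogenous retrovirus expressed in early mouse embryos and, in culture, in the occasional stem cell, and the reporter made such cells red. All cells of both groups were kept in medium with 15% fetal bovine serum and 25 ng/mL mouse LIF, the ligand of the receptor described below. Fluorescence-activated cell sorting gave a DsRed2-positive group and a DsRed2-negative group, each with 3 biological replicates taken on different dates.

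LIF is a cytokine that keeps mouse embryonic stem cells self-renewing in serum. It binds Lifr, which pairs with the signalling chain Il6st (gp130), and the kinase Jak1 bound to these chains then phosphorylates Stat3, which enters the nucleus and activates target genes. Among the targets are Socs3, which shuts the receptor complex down, Pim1 and Pim3, serine/threonine kinases that favour survival, and Gbx2, a homeobox factor that can sustain self-renewal.

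Neither the compared groups nor the numerator is named in the table. It was taken to compare DsRed2-positive with DsRed2-negative cells because the labels list no other groups, and each sign below is the sign as deposited. The columns of a table of counts for 6 libraries match no sample label, so no value per sample, no depth and no spread between replicates is given. The error of each value is the authors' standard error, and 95% intervals are the value plus or minus the normal quantile times that standard error, without adjustment for the number of genes. In the authors' deposited table, 30.5% of all 17110 genes had an adjusted p-value under 0.05 (DESeq2), 14.6% with a positive and 15.9% with a negative fold change. Of 9 embryonic stem cell markers with a row in the authors' deposited table, 6 were past this threshold and all of these were positive, among them Pou5f1 at 0.26 ± 0.10 (SE) on the log2 scale, while Sox2 at 0.14 ± 0.14 was not. With centring on ribosomal protein genes or removal of GC and length trends, 5 of the 9 were past it, and Pou5f1 was the gene lost, at 0.17 and 0.23. Of 13 markers listed for the two-cell-like state, 2 were found in the authors' deposited table: Calcoco2 at 3.10 ± 0.14 and Nelfa at 0.22 ± 0.11 (SE). The other 11 were not analysed here, so the table offers little check of which group is which. Of 9 trophectoderm markers in the authors' deposited table, 7 passed the threshold and all 7 were negative, and of 9 fibroblast markers 5 were negative and 1 was positive past it. Of 8 primitive endoderm markers in the authors' deposited table, 2 were negative and 1 was positive past it. Many of these markers differed between the same sorted groups as the genes below, in both directions, and their part in the results was not tested. In bulk samples, fewer cells of a type and less RNA per cell cannot be told apart.

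The receptor chains and Stat3 were positive and Jak1 was negative, by less than 1 log2 unit each. In the authors' deposited table, 6 of the 9 genes were past an adjusted p-value of 0.05, 4 positive and 2 negative, against the 30.5% of all genes given above. With fold changes centred on 76 ribosomal protein genes, whose own median was 0.093, the split became 3 positive and 3 negative, and that of all genes went from 2492 positive and 2719 negative to 1864 and 3508. The median log2 fold change of the 9 genes in the authors' deposited table was 0.30, beside 0.0097 over all genes. Mean normalized counts of the 9 genes lay between 1228 and 3347 in the authors' deposited table. Of the 3931 genes with a mean count between 1000 and 4000 in the authors' deposited table, 32.5% passed the threshold, and their median standard error was 0.11. Just 1 of the 9, Lifr, also exceeded the log2 fold change of 0.5 that the authors required for their own calls and was called up, as were 9.4% of all genes, while 12.1% were called down and 21.5% were called in either direction.

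**Figure D1:**
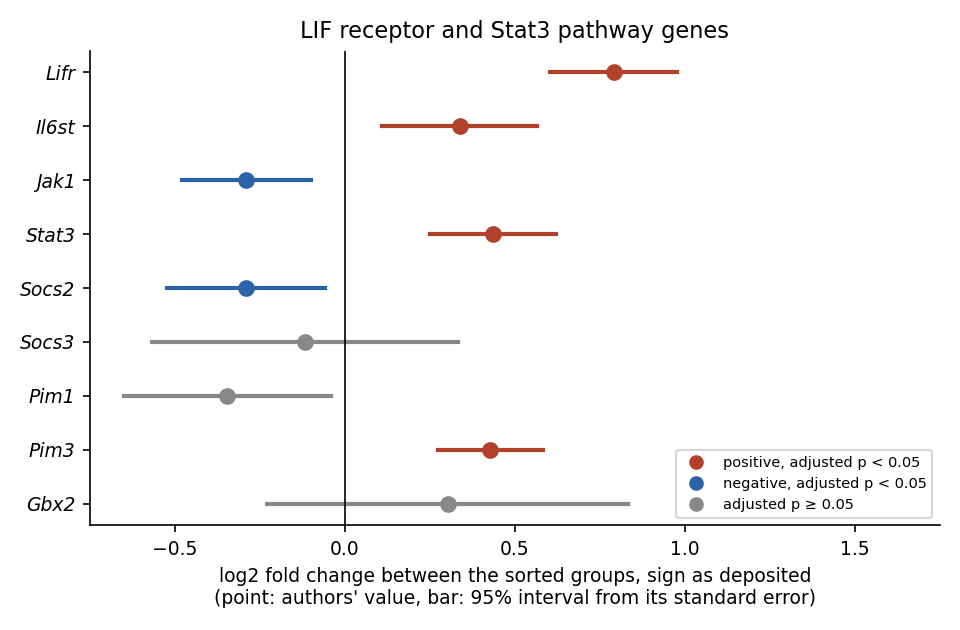
Log2 fold change of each of the 9 genes between the sorted groups (x axis, sign as deposited), with the authors' value as a point and its 95% interval as a bar. Lifr stands farthest from 0 at 0.79, and the intervals of Socs3 and Gbx2 cross 0.

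Lifr (ENSMUSG00000054263), the chain to which LIF binds, had the largest change of the 9. Its log2 fold change in the authors' deposited table was 0.79 ± 0.095 (SE), with a DESeq2 adjusted p-value of 3.5e-15. On the linear scale this is a ratio of 1.73, with a 95% interval from 1.52 to 1.97 by the standard error in the authors' deposited table. Il6st (ENSMUSG00000021756), the chain shared by the interleukin-6 family of cytokines, had the same sign and a smaller value. It stood at 0.34 ± 0.12 (SE) in the authors' deposited table, with a DESeq2 adjusted p-value of 0.015 and an interval from 0.11 to 0.57. The upper end of this interval lay below the lower end for Lifr, 0.60 in the authors' deposited table. Each interval is for 1 gene alone, and no test between these genes of the same libraries was made. Il6st lost its call with centring on the ribosomal protein genes: it then stood at 0.24 with an adjusted p-value of 0.096. The mean normalized counts of the chains were nearly equal in the authors' deposited table, 2606 for Lifr and 2562 for Il6st. Per kilobase of the longest annotated transcript they came to 270 and 295 counts, near the 63rd and the 65th percentile of all genes.

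Jak1 (ENSMUSG00000028530), the kinase next in the chain, had the opposite sign to the receptor. Its log2 fold change in the authors' deposited table was -0.29 ± 0.097 (SE), a ratio of 0.817, with a DESeq2 adjusted p-value of 0.0113. The other 3 kinases of the Jak family also passed the threshold, in both directions, beside 30.5% of all genes. Jak3 did not pass with centring on the ribosomal protein genes. Tyk2, like Jak2, can also bind Il6st, while Jak3 serves receptors with the common gamma chain. Tyk2 and Jak3 were at 0.56 ± 0.092 and 0.33 ± 0.13 (SE) in the authors' deposited table, with DESeq2 adjusted p-values of 1.83e-08 and 0.0366. Jak2, which acts in receptors for growth hormone and erythropoietin as well, was at -1.64 ± 0.26 (SE) in the authors' deposited table, with a DESeq2 adjusted p-value of 6.99e-09. Jak2 was also the least abundant of the 4: per kilobase its mean count in the authors' deposited table was 41.9, beside 204 for Jak3, 239 for Tyk2 and 294 for Jak1. Jak1 thus made up 37.7% and Jak2 5.39% of the family's summed mean count per kilobase, averaged over both groups.

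Stat3 (ENSMUSG00000004040), the factor that carries the signal to the nucleus, shared the sign of the receptor chains. Its log2 fold change in the authors' deposited table was 0.43 ± 0.095 (SE), a ratio of 1.35 with an interval from 1.19 to 1.54, and its DESeq2 adjusted p-value was 3.79e-05. Its interval on the log2 scale, 0.25 to 0.62 in the authors' deposited table, overlapped that of Il6st over most of its length. Of the other 6 STAT factors, 2 (33.3%) passed the threshold, 1 on each side, close to the 30.5% of all genes. Stat6, the factor of interleukin-4 signalling, was at 0.70 ± 0.18 (SE) in the authors' deposited table, with a DESeq2 adjusted p-value of 0.00051. Stat5b, which responds to growth hormone and prolactin, was at -1.06 ± 0.28 (SE) in the authors' deposited table, with a DESeq2 adjusted p-value of 0.00105. The remaining 4 were not past it: Stat2, a factor of the type I interferon response, had 0.57 ± 0.26 (SE) in the authors' deposited table, with a DESeq2 adjusted p-value of 0.093. Stat5a and Stat5b are close copies, and how reads common to both were counted is not stated, so their values are uncertain. Per kilobase, Stat3 was second in its family at a mean count of 339, below Stat6 at 439, and together these made up most of the family's summed level.

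Of the feedback inhibitors, Socs2 was negative past the threshold and Socs3 was not past it. Socs2 and Socs3 belong to the suppressors of cytokine signalling, which bind activated receptors or Jak kinases, and Socs3 is the one that acts on Il6st itself. Socs2 (ENSMUSG00000020027) was at -0.29 ± 0.12 (SE) in the authors' deposited table, a ratio of 0.817 with a DESeq2 adjusted p-value of 0.0456. This call was close to the limit and was lost when the trends with GC content and transcript length were removed (-0.24, adjusted p-value 0.108). Socs3 (ENSMUSG00000053113) was at -0.12 ± 0.23 (SE) in the authors' deposited table, with a DESeq2 adjusted p-value of 0.759. Its 95% interval in the authors' deposited table ran from -0.57 to 0.33, so a change of the size seen for Stat3 lay outside it on the positive side and a negative one of that size lay inside. Per kilobase, Socs3 and Socs2 were the most abundant of the 8 Socs and Cish genes, at mean counts of 754 and 751. Across these 8 genes in the authors' deposited table, 5 passed the threshold and all 5 were negative, against 15.9% of all genes, and 3 did not pass. Without the trends with GC content and length, 3 of the 8 passed, again all negative. Socs5 was at -0.91 ± 0.17, Socs4 at -0.42 ± 0.12 and Socs1, the inhibitor of interferon-gamma signalling, at -1.35 ± 0.42 (SE) in the authors' deposited table. The DESeq2 adjusted p-values of these 3 in the authors' deposited table were 1.31e-06, 0.00258 and 0.00644. Socs1 had a mean normalized count of 37.4, and the fifth gene was Socs6 at -0.28 ± 0.097 (SE) in the authors' deposited table. Of the 4 PIAS genes, whose products restrain STAT factors in the nucleus, 3 were past the threshold and all 3 were positive, against 14.6% of all genes. Pias2 led them at 0.57 ± 0.072 (SE) in the authors' deposited table, with a DESeq2 adjusted p-value of 6.48e-14. Centred on the ribosomal protein genes, 1 of the 4 passed. With the phosphatases Ptpn1, Ptpn2 and Ptpn6, the list of 13 further inhibitors had 3 positive and 4 negative genes past the threshold, 53.8% beside 30.5% of all genes. The 3 phosphatases lay between -0.17 and 0.20 in the authors' deposited table without a call.

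Of the Pim kinases, Pim3 was positive and Pim2 negative past the threshold, and Pim1 was not past it. Pim3 (ENSMUSG00000035828) was at 0.43 ± 0.079 (SE) in the authors' deposited table, a ratio of 1.34, and its DESeq2 adjusted p-value was 7.86e-07. Pim1 (ENSMUSG00000024014) was at -0.35 ± 0.15 (SE) in the authors' deposited table, with a DESeq2 adjusted p-value of 0.0764. The intervals of these paralogs did not overlap, reaching from 0.27 to 0.58 for Pim3 and from -0.65 to -0.042 for Pim1 in the authors' deposited table. A test between genes of the same libraries was not made. Centred on the ribosomal protein genes, Pim1 stood at -0.44 and passed the threshold (adjusted p-value 0.0178). Pim2, the remaining gene of the family, had a far larger change than either. It was at -3.02 ± 0.15 (SE) in the authors' deposited table, a ratio of 0.123, with a DESeq2 adjusted p-value of 5.2e-91. Averaged over both groups, Pim2 had the highest level of the 3 in the authors' deposited table, with a mean count of 2516 per kilobase beside 1340 for Pim3 and 1241 for Pim1. Split by the ratios in the authors' deposited table, for groups of equal size, these means correspond to 4480 for Pim2, 1389 for Pim1 and 1143 for Pim3 in the group that the ratio divides by, and to 553, 1092 and 1537 in the other group, where Pim2 was the lowest of the 3.

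**Figure D2:**
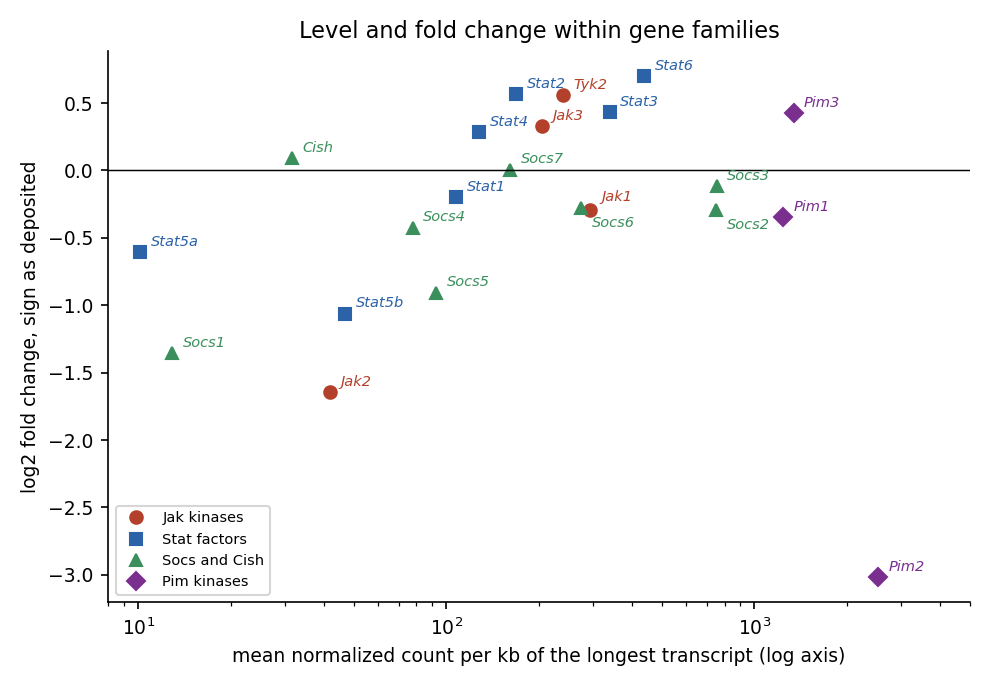
Log2 fold change (y axis, sign as deposited) against the mean normalized count per kilobase of the longest transcript (x axis, log scale) for the Jak, Stat, Socs with Cish, and Pim families, 1 point per gene. Levels are means over both groups, and Pim2 lies at 2516 with a fold change of -3.02. Of the members, Jak1, Stat3, Socs2, Socs3, Pim1 and Pim3 lie within 0.5 of 0. Stat6, Stat2 and Tyk2 lie above 0.5, and Jak2, Stat5a, Stat5b, Socs1, Socs5 and Pim2 lie below -0.5.

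Gbx2 (ENSMUSG00000034486), the homeobox target of Stat3, was not past the threshold. It was at 0.30 ± 0.27 (SE) in the authors' deposited table, with a DESeq2 adjusted p-value of 0.443. The interval in the authors' deposited table, from -0.23 to 0.83, includes 0 as well as the value of Lifr.

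Because Stat3 binds the palindromic motif TTCNNNGAA, the start sites of these genes were searched for it. The windows, taken from RefSeq on build GRCm38.p6, run from 250 bases before to 50 bases after each start, and 8 of the 9 genes had 1 or more, 10 windows in all. The motif equals its own reverse complement, so 1 search covers both strands, and the same holds for the form with 1 more base (N) in its spacer. The windows of Socs3 and Gbx2 are shown because they alone among the 10 held a match to either form, and the match is in capitals. Both are written 5′ to 3′ on the strand of the gene, with Socs3 at chr11:117969317-117969616 (minus strand) and Gbx2 at chr1:89931127-89931426 (minus strand).
Socs3: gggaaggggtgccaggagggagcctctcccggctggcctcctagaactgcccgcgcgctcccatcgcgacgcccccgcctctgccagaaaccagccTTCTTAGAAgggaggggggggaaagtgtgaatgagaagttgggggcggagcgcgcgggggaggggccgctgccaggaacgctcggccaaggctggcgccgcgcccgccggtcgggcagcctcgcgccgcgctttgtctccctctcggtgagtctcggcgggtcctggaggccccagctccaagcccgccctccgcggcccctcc
Gbx2: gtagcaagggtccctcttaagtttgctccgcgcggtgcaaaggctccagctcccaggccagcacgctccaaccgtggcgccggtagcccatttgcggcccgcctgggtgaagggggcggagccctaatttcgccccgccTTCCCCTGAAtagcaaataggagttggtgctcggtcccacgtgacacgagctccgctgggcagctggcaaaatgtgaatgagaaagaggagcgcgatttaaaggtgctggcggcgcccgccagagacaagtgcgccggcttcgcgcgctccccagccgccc
The match in the Socs3 window is TTCTTAGAA, which begins 154 bases before the start and has the 3-base spacer. That in the Gbx2 window is TTCCCCTGAA, 111 bases before the start, with the 4-base spacer, so it is not a match to TTCNNNGAA. Of the 10 windows, that of Socs3 alone held TTCNNNGAA. Binding at these letters was not tested. Of all 32851 RefSeq windows of this length, 8.3% held TTCNNNGAA and 6.95% held the form with the longer spacer, and 14.6% held at least 1 of them. The windows of Lifr, Il6st, Jak1, Stat3, Pim1 and Pim3 held neither, which says only that these letters are not in these 300 bases. Across the 11521 genes of the authors' deposited table with a window, 33.7% of the 917 with TTCNNNGAA were past the threshold, beside 32.7% of those without it. The median log2 fold changes of these groups of genes in the authors' deposited table were 0.025 and -0.0061. Among further LIF or Stat3 target genes of stem cells or other cells, 20 had a row and a window. Of these, 3 held TTCNNNGAA, namely Bcl6, Irf1 and Zfp36. Over all roles of the pathway list it was 5 of 58, with Cish and Gab1 added, beside 7.96% of the 11521 genes.

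Socs3 and Gbx2 were also the genes measured with the least certainty for their level. The standard error of each gene was set beside those of the 500 genes nearest to it in mean normalized count. The standard error of Socs3 in the authors' deposited table, 0.23, was larger than that of 98.4% of its neighbours, whose median was 0.11. That of Gbx2, 0.27, was larger than 97.4%, and that of Pim1, 0.15, larger than 89.6%. For Pim3, in contrast, 8.4% of neighbours had a smaller standard error than its 0.079 in the authors' deposited table. Lifr, Il6st, Jak1, Stat3 and Socs2 lay between 24% and 62.8% by the same measure. In DESeq2 the standard error of an abundant gene follows mainly from its fitted dispersion, the spread among samples that the model does not explain. Of the 28 further LIF or Stat3 target genes described below, 10 also had a standard error above the 90th percentile of their neighbours, as had 1692 of all 17110 genes. Which samples were high or low is not known here.

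**Figure D3:**
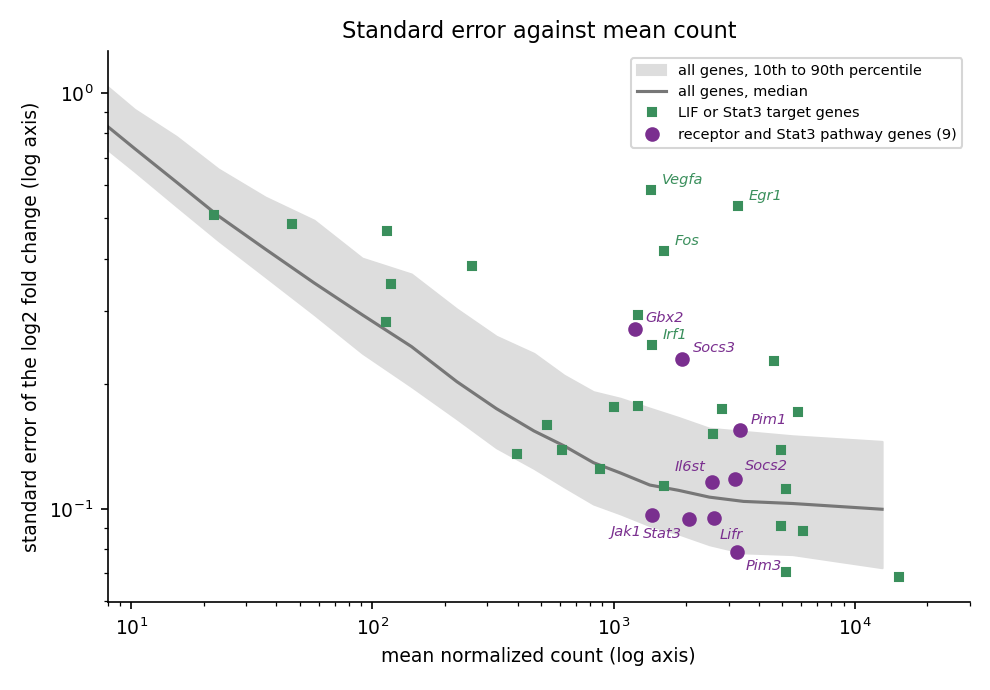
Standard error of the log2 fold change (y axis) against mean normalized count (x axis), both on log scales. Circles are the 9 genes, and squares are 28 further LIF or Stat3 target genes of stem cells or other cells. The grey band spans the 10th to the 90th percentile of all genes in 20 bins of mean count, and Socs3 and Gbx2 lie above it, as do several targets, of which Fos, Egr1, Irf1 and Vegfa are labelled.

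The other genes of the pathway were taken from a list of 84, of which 77 were found in the table and the other 7 were not analysed here. In the authors' deposited table, 40 of the 77 (51.9%) were past the threshold, 16 positive and 24 negative, against 30.5% of all genes. The median log2 fold change of the 77 was -0.11, beside 0.0097 over all genes. Past the threshold and beyond 1 log2 unit in size were 17 of the 77, 2 positive and 15 negative, in the authors' deposited table. Of all 17110 genes, 957 positive and 1315 negative ones were, 13.3% in either direction.

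**Figure D4:**
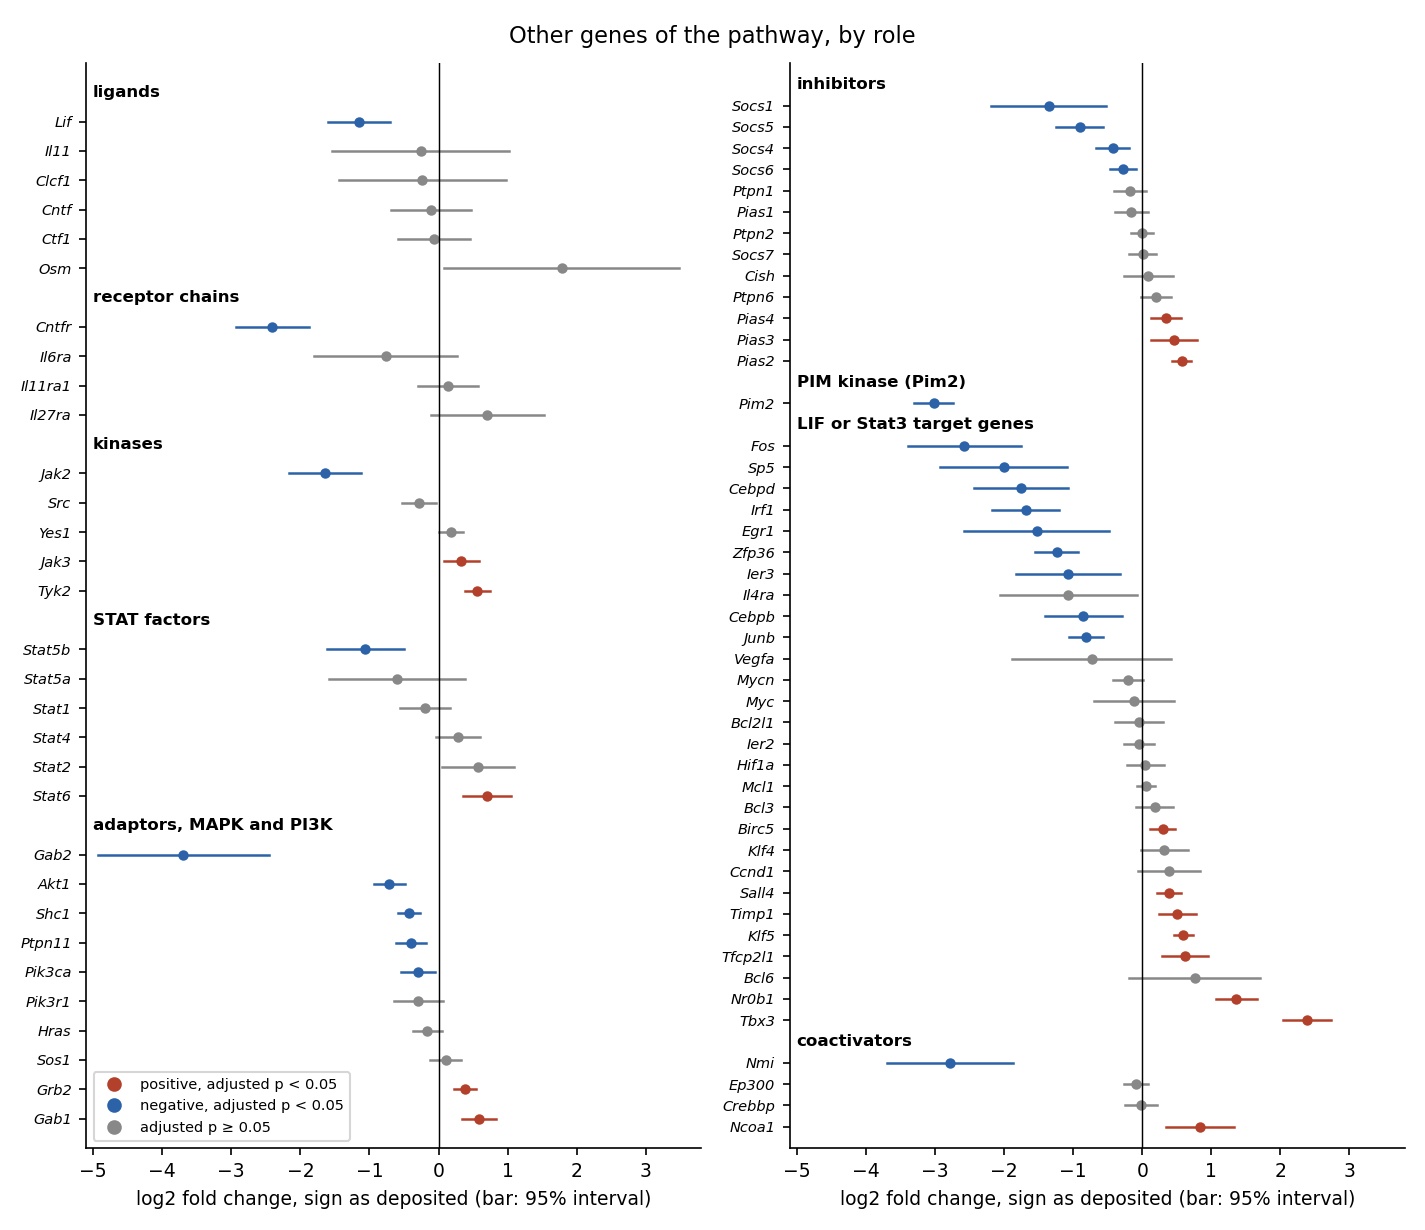
Log2 fold change (x axis, sign as deposited) of the 77 other pathway genes, grouped by role, with 95% intervals as bars and colour for the sign of genes past the threshold. Among genes past the threshold, Gab2, Pim2 and Nmi lie farthest to the left, and Tbx3 and Nr0b1 farthest to the right.

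The ligand genes of this family had low mean normalized counts, between 10.1 and 149 in the authors' deposited table. Lif itself was at -1.15 ± 0.23 (SE) in the authors' deposited table, with a DESeq2 adjusted p-value of 4.56e-06, so its own gene and its receptor gene had opposite signs. The medium supplied LIF to both groups, and LIF protein was not analysed here. The other 5 ligands with a row were not past the threshold, and Osm, at 1.78 ± 0.87 (SE) in the authors' deposited table, had a mean count of 11.6, while Il11 had -0.26 ± 0.66 (SE). Among the receptor chains of related cytokines, 1 of 4 (25%) passed, beside 30.5% of all genes. This was Cntfr, the ciliary neurotrophic factor receptor that also works through Lifr and Il6st. It was at -2.40 ± 0.27 (SE) in the authors' deposited table, with a DESeq2 adjusted p-value of 1.9e-17. Il27ra had 0.70 ± 0.42 and Il6ra -0.76 ± 0.53 (SE) in the authors' deposited table, both at mean counts under 50.

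Adaptors and kinases below the receptor had calls in both directions. Of the 10 genes that couple the receptor to the MAPK and PI3K branches, 2 were positive and 5 negative in the authors' deposited table among those that passed the threshold. These made up 70% of the 10, beside 30.5% of all genes. Akt1, the kinase downstream of PI3K, was at -0.71 ± 0.11 and Shc1, an adaptor of phosphorylated receptors, at -0.43 ± 0.081 (SE) in the authors' deposited table, with DESeq2 adjusted p-values of 4.87e-09 and 1.11e-06. The docking proteins Gab1 and Gab2 had opposite signs, at 0.58 ± 0.12 and -3.69 ± 0.63 (SE) in the authors' deposited table. Their mean normalized counts in the authors' deposited table were 12202 and 30.2, so Gab1 was the abundant one by far, and per kilobase the values were 2448 and 4.89. Ptpn11 (Shp2), the phosphatase that docks on Il6st and starts the MAPK branch, was at -0.40 ± 0.11 (SE) in the authors' deposited table, with a DESeq2 adjusted p-value of 0.00254.

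The further target genes of LIF or Stat3, listed as targets in stem cells or in other cells, passed in both directions. Of 28 with a row, 16 (57.1%) passed the threshold, 7 positive and 9 negative in the authors' deposited table, leaving 12 that missed it. Of all genes, 30.5% passed, 14.6% positive and 15.9% negative. The positive ones included factors of the naive stem cell state. Tbx3, a T-box factor placed on the PI3K side of LIF signalling, was at 2.39 ± 0.18, Nr0b1 (Dax1) at 1.36 ± 0.15 and Klf5 at 0.60 ± 0.071 (SE) in the authors' deposited table, with DESeq2 adjusted p-values of 3.63e-39, 8.4e-18 and 1.1e-15. Tfcp2l1 and Klf4, both direct Stat3 targets in stem cells and named here after their values were seen, were at 0.62 ± 0.17 and 0.32 ± 0.17 (SE) in the authors' deposited table. The first was past the threshold (DESeq2 adjusted p-value 0.00149) and the second was not (0.159). Among the negative ones were several immediate early genes, which serum and many cytokines induce quickly, while Ier2, Myc and Mcl1, also quickly induced and named after their values were seen, had -0.047, -0.12 and 0.057 in the authors' deposited table and no call. Fos was at -2.57 ± 0.42, Egr1 at -1.53 ± 0.54, Ier3 at -1.07 ± 0.38 and Zfp36, which destabilizes cytokine messages, at -1.23 ± 0.16 (SE) in the authors' deposited table. Irf1, a STAT-driven interferon factor, was at -1.69 ± 0.25 and Cebpd at -1.75 ± 0.35 (SE) in the authors' deposited table. Junb and Cebpb, also past the threshold and named after their values were seen, were at -0.81 ± 0.12 and -0.85 ± 0.28 (SE). The standard error of Egr1 in the authors' deposited table was 0.54, above that of 99.8% of its neighbours in mean count, and those of Fos and Irf1 were above 99.2% and 99.6%. Sp5, a target shared with Wnt signalling, was at -2.01 ± 0.47 (SE) in the authors' deposited table, with a mean count of 115. The DESeq2 adjusted p-values of these negative genes in the authors' deposited table lay between 2.91e-13 and 0.0206. Of the transcriptional coactivators, Ncoa1 was at 0.84 ± 0.25 and Nmi, an interferon-inducible partner of STAT factors, at -2.78 ± 0.47 (SE) in the authors' deposited table, while Ep300, an acetyltransferase, had -0.091 ± 0.089 and no call (DESeq2 adjusted p-values 0.00493, 3.86e-08 and 0.49).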

How the data were processed

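RNA captured with oligo(dT) beads from 3 DsRed2-positive and 3 DsRed2-negative samples was sequenced on a DNBSEQ platform, per the labels' protocols. The submitters' processing notes name FastQC 0.12.1, Trimmomatic 0.39, STAR 2.7.11b, RSEM 1.3.3, DESeq2 1.45.3 and build GRCm39, without roles. The model formula, reference group and strandedness are not given in the sources used here. Per the file headers, the authors' deposited table holds DESeq2 output: the mean normalized count is a signal averaged over libraries, the fold change and its standard error are log2 values, the Wald statistic is a score, and the p-value and adjusted p-value are used as deposited. The Wald statistic and the ratio of the log2 fold change to its standard error differed by no more than 5.77e-07. The authors' calls matched an adjusted p-value under 0.05 with an absolute log2 fold change over 0.5, with 0 exceptions.

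The 6 columns of the count table match no label and were not used, so no fit per sample was made here. The members and lists were chosen with earlier results of these data known. Genes named are the 9 members, the 3 genes with the smallest adjusted p-value in each role of the pathway list, any pathway gene past the threshold by over 1 log2 unit, Pou5f1 and Sox2. The results of 2 listed pathway genes are not reported here, and both were left out of the list's counts. Other genes are named for their family or role, after their values were seen. Transcript length and GC content came from GENCODE M21 (GRCm38) by gene ID for 16795 genes, all 9 members included, and the loess span was 0.3. Promoter windows came from RefSeq (GRCm38.p6), and since the build differs no other coordinates are given. Python 3.11.15, scipy 1.17.1, pandas 2.3.3 and R 4.3.3 were used, and the procedures were tested on simulated data.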

Additional observations from a re-analysis of the deposited data

How the results depend on the processing

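Of 8 alternatives listed in the design, 3 could move a fold change. These were centring on all genes or on ribosomal protein genes, and removal of GC and length trends. Each of the 9 kept its sign under them. Centring took a constant from every gene, 0.0097 or 0.093, which could not turn the sign of any of the 9. The other 5 alternatives changed only the calls. Over all 8 alternatives, 55 of 72 values kept their side of the threshold, and many of these could hardly change it. Recomputing the adjusted p-value reused the deposited p-values, and the minimum mean count of 50 left out none of the 9. Stricter limits cannot call a gene that was not called before. No fit that needs values per sample was run (edgeR, leaving out a replicate), because no count column could be matched to a sample. No paired analysis was possible because no count column could be tied to a replicate and the fold changes are not per sample. The count of 6 called genes became 3 at an adjusted p-value under 0.01, where Il6st (0.34), Jak1 (-0.29) and Socs2 (-0.29) were lost. It became 1 with an absolute log2 fold change over 0.5, which also removed Stat3 (0.43) and Pim3 (0.43), and 0 with one over 1, which removed Lifr (0.79). That limit also lowered the other pathway genes from 40 to 17 and all genes from 5211 to 2272. Stricter limits produce these losses by construction. Centring on the ribosomal protein genes ended the call of Il6st (0.24) and gave one to Pim1 (-0.44). It moved all calls from 2492 positive and 2719 negative to 1864 and 3508. Removing GC and length trends ended the call of Socs2 (-0.24). The changes of Il6st and Pim1 follow from taking 0.093 off every gene with the standard errors kept. Why fold changes went with GC content and length was not tested, and neither was which scaling is right. Depth per library is unknown here, and a change of Socs3 or Gbx2 is bounded only by its interval.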
